A study of Mus musculus with 8 samples.

Results

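The genes described here are 40 genes of DNA replication and mitosis, chosen by symbol with earlier results of these data known. Their RNA was compared between the hearts of satiated and fasted mice. A probe mapped to 38 of the 40 through its transcript accession, with 54 probes in all, among 18217 genes with a named probe on the array. Of these 38 genes, 32 were well above background on at least 4 of 8 arrays and could be tested, 6 were dimmer (Cdk1, Ccnb1, Top2a, E2f1, Aurkb and Kif11), and no probe was matched to Ccnd1 and Rrm2. All mice were C57BL/6J males, 9 weeks old, kept on a standard pellet diet. One group of 4 was satiated and received no treatment, and the other group of 4 was deprived of food for 2 days with water freely available. Total RNA of the heart was hybridised to Agilent arrays in 1 colour, with 1 array per heart. No transgene or drug was involved. The labels number the hearts of each group but say nothing further about the animals, so the p-values cover only the spread among the samples, which may be partly technical.

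A cell that divides first passes the G1 checkpoint, where D-type and E-type cyclins release E2F factors from the retinoblastoma family. E2F targets then license origins, unwind DNA with the MCM helicase and supply nucleotides. Later in the cycle a second wave of genes builds the mitotic cyclin-kinase complex, the spindle and the kinetochores. In the adult heart most cardiomyocytes have left the cell cycle, and the RNA of such genes is usually ascribed to the few dividing cells, many of them non-myocytes. In RNA from whole tissue, fewer cells of a type and less RNA per cell cannot be told apart.

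These 2 waves have different promoter elements, and the promoters of 5 genes whose RNA changed are printed to show them. The E2F element is typical of replication genes, and the CHR element, often beside CCAAT boxes, of mitotic genes. Each stretch, from RefSeq (GRCm38.p6), runs 5′ to 3′ on the gene's strand from 250 bases before to 50 bases after the start. Capitals mark matches on either strand to CHR (TTTGAA or TTCGAA), E2F (TTTCCCGC, TTTCGCGC, TTTGCCGC or TTTGGCGC) and CCAAT, and matches that overlap or adjoin run together. The first 2 belong to subunits of the replicative helicase, Mcm5 (chr8:75109259-75109558, plus strand) and Mcm7 (chr5:138171834-138172133, minus strand). The other 3 belong to the mitotic genes Ccnb2 (chr9:70421505-70421804, minus strand), Aurka (chr2:172370521-172370820, minus strand) and Cenpa (chr5:30666636-30666935, plus strand).
Mcm5: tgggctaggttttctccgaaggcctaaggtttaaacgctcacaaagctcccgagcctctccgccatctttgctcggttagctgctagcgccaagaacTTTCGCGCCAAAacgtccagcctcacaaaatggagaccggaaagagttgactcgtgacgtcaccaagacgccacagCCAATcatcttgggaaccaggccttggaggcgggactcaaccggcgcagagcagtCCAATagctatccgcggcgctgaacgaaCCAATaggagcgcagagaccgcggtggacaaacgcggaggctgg
Mcm7: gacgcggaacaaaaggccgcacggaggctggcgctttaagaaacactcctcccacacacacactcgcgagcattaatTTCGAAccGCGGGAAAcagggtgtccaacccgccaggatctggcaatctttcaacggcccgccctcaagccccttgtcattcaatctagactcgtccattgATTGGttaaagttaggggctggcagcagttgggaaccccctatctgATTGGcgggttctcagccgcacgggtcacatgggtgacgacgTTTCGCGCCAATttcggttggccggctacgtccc
Ccnb2: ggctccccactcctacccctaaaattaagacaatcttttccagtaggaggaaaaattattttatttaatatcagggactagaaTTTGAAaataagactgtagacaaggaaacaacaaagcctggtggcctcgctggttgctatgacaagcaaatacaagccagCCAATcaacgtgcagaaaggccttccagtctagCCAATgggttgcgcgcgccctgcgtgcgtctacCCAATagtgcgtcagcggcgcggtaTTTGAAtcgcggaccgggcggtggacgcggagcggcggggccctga
Aurka: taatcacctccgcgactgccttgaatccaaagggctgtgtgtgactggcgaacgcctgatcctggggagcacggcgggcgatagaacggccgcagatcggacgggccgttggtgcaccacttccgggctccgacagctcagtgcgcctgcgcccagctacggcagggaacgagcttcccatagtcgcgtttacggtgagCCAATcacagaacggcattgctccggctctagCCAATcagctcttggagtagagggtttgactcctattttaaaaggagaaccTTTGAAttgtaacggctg
Cenpa: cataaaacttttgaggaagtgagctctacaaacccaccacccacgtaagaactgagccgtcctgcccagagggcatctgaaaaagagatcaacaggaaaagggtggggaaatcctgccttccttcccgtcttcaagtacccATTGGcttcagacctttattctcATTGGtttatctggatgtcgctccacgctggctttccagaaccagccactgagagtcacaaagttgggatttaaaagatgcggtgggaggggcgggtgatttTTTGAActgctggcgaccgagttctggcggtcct

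The table of promoters held 33 for 31 of the 40 genes. None was matched for Ccnd1, Ccnd2, Ccne2, Mcm4, Ccna2, Foxm1, Aurkb, Tpx2 and Kif20a. Among the 15 promoters of G2/M, spindle and kinetochore genes, 11 (73.3%) held a CHR match, 13 (86.7%) a CCAAT match and 1 (6.67%) an E2F match. Among the 14 promoters of licensing, helicase, clamp and nucleotide genes, 3 (21.4%) held a CHR match, 10 (71.4%) a CCAAT match and 6 (42.9%) an E2F match. Over all 32851 promoters of the same length the shares were 19.2% for CHR, 37.4% for CCAAT and 2.26% for E2F. The 2 waves of genes thus differed in their shares of CHR and E2F matches, while CCAAT matches were common in both. The difference was not tested. A match is a stretch of letters and not a measured binding site. Of the 7 genes called lower that have a promoter in the table, 4 held a CHR match, 6 a CCAAT match and 1 an E2F match. Of those not printed, Tyms held no match and Cenpe a CCAAT match only. Mcm2 held CHR and CCAAT matches but no E2F match.

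Each value below is a log2 level relative to the 75th percentile of its array, so 0 is the signal of a fairly bright probe, and levels of different probes are not compared. Replicates 1 and 2 of both groups lay on slide 1, and replicates 3 and 4 on slide 2. The share of probes well above background was 66.7% to 68.9% on slide 1 and 54.4% to 55.6% on slide 2, and no spot was saturated. All 10 cardiomyocyte markers were well above background on all 8 arrays. Satiated replicate 1 stood apart in skeletal muscle markers, with a median level of 4.25 against -0.79 to 0.37 in the other 7 hearts. Without it, 10 of the 11 calls among the replication and mitosis genes were made. The dim genes were seen more often on slide 1: the number of the 38 genes above background per heart was 37 and 38 in satiated replicates 1 and 2, 29 and 32 in satiated replicates 3 and 4, 34 and 32 in fasted replicates 1 and 2, and 29 and 28 in fasted replicates 3 and 4. These counts were lower in fasted hearts on slide 1, whereas on slide 2 they ran from 28 to 32 in both groups together.

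After 2 days without food, replication and mitosis genes were mostly lower in the heart. Of the 32 tested, 10 fell (31.25%) and 1 rose, Mcm7, against a background of 10.3% lower and 9.82% higher over all 20203 genes and unnamed probes tested (adjusted p under 0.05, limma). Either way the share called was 34.4%, against 20.2% of everything tested. These genes and the further lists below were chosen with earlier results of these data known. Shares above the background are therefore a description and no independent support. The genes that fell were Ccnd2, Mcm2, Mcm5, Tyms, Ccnb2, Aurka, Tpx2, Kif20a, Cenpa and Cenpe. The median log2 difference, fasted minus satiated, was -0.56, against -0.0042 over everything tested. The difference was below 0 for 26 of the 32 (81.2%), against 50.3% of everything tested. The values of the groups did not overlap for 10 of the 32 (31.25%), close to the 27.6% of everything tested. Under another background correction (normexp with an offset of 50), which draws dim signals together, the median was -0.28 and 10 were called.

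**Figure D1:**
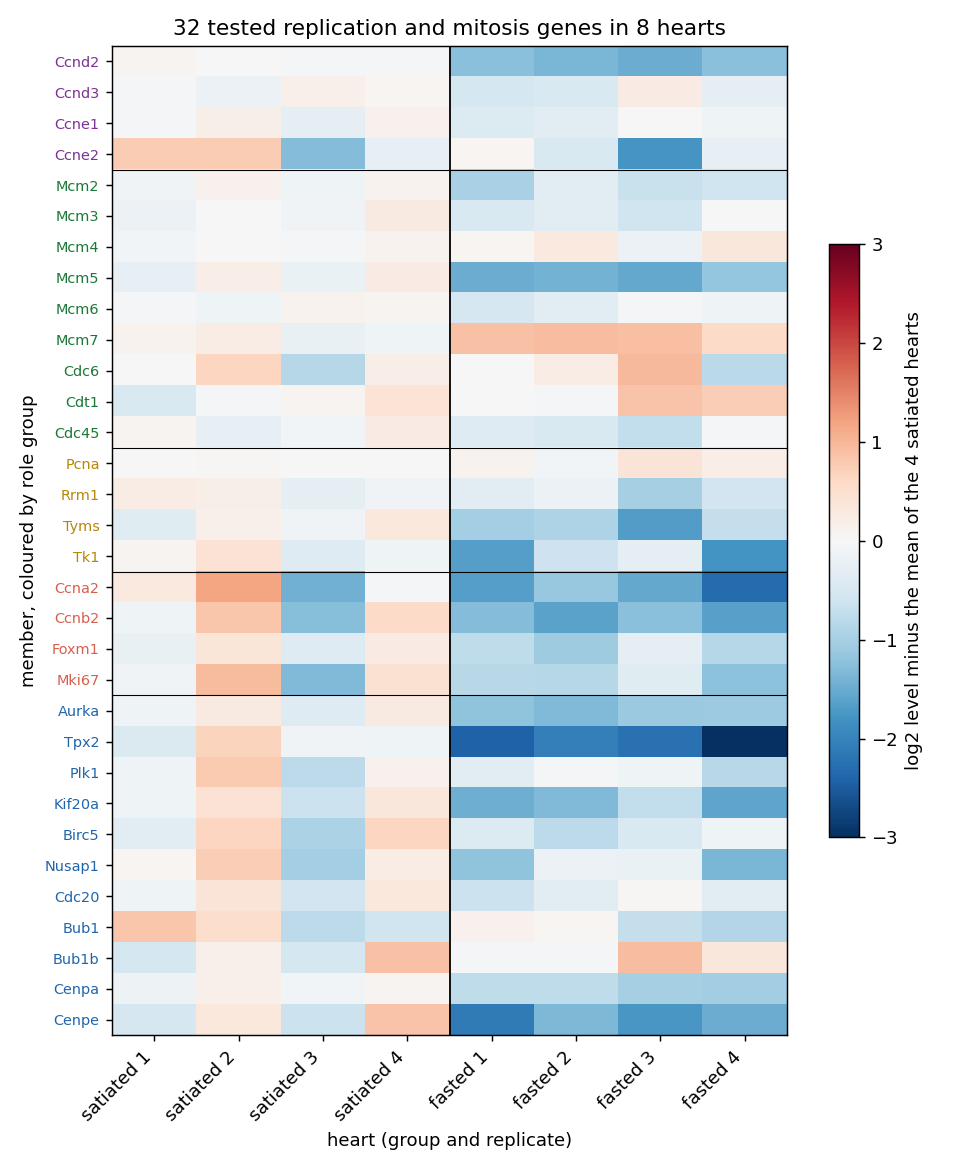
Heat map of the 32 tested replication and mitosis genes (vertical axis, ordered by role) in 8 hearts (horizontal axis). Colour gives the log2 level minus the mean of the 4 satiated hearts. The fasted hearts are mostly on the lower side, with Mcm7 the one gene called higher, and satiated replicate 3 lies on the lower side for most mitotic genes.

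The median difference was below 0 on both slides, at -0.70 within slide 1 and -0.38 within slide 2. All 11 genes called had the same sign on both slides. Sizes varied between slides, with -1.27 and -0.36 for Mki67 and -0.62 and -0.02 for Cdc20 on slides 1 and 2, and 2 hearts per group on a slide could not show whether they differ. Slide 2 alone, with 2 hearts a group, gave no call (limma, 10 genes at an unadjusted p under 0.05). A fit blocked by slide called 14 of the 32 (43.75%, against 35.5% of everything tested), 13 of them lower (against 18.4% of everything tested), with Ccna2 (adjusted p = 0.0189), Rrm1 (adjusted p = 0.0139) and Foxm1 (adjusted p = 0.0428) added.

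The G1 group holds the D-type cyclins, which answer growth signals and start the G1 kinases, the E-type cyclins, which drive entry into S phase, and E2f1. Of 4 tested, 1 fell, Ccnd2 (25%, near the 20.2% called over everything tested), and the group's median difference was -0.43. Ccnd2 had levels of 4.21, 4.14, 4.07 and 4.05 in satiated replicates 1 to 4 and 2.86, 2.75, 2.64 and 2.86 in fasted replicates 1 to 4. Each group was tight, and the lowest satiated heart lay far above the highest fasted one. The mean fell from 4.12 ± 0.07 to 2.78 ± 0.11 (SD, n = 4 each), a log2 difference of -1.34 ± 0.11 (SE), or 2.53-fold lower, with an adjusted p = 0.000383. The other probes of Ccnd2 gave -1.47 (adjusted p = 0.000919) and -1.39 (adjusted p = 0.00133). Its paralog Ccnd3 did not pass, with a log2 difference of -0.26 ± 0.18 (adjusted p = 0.364), nor did Ccne1, at -0.22 ± 0.15 (adjusted p = 0.344). Ccne2 was above background on slide 1 alone and had a log2 difference of -0.60 ± 0.55 (adjusted p = 0.491).

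Licensing and helicase genes went in both directions. Of 9 tested, 2 fell (Mcm2 and Mcm5) and 1 rose (Mcm7), although their products are subunits of a single hexameric helicase. The share called was 33.3% of the 9, against 20.2% of everything tested, and their median difference was -0.25.

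Mcm5 had levels of -1.41, -0.96, -1.37 and -0.92 in satiated replicates 1 to 4 and -2.66, -2.58, -2.69 and -2.33 in the fasted ones. The groups did not overlap. The mean fell from -1.17 ± 0.26 to -2.57 ± 0.16 (SD, n = 4 each), a log2 difference of -1.40 ± 0.16 (SE), 2.64-fold, with an adjusted p = 0.00124. The printed promoter of Mcm5 held 2 overlapping E2F matches.

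Mcm2 fell less. Its levels were -1.47, -1.24, -1.49 and -1.25 in satiated replicates 1 to 4 and -2.32, -1.67, -2.02 and -1.95 in the fasted ones, and the groups did not overlap, with fasted replicate 2 nearest to the satiated hearts. The log2 difference was -0.63 ± 0.16 (SE), 1.55-fold lower (adjusted p = 0.0261). This call was lost without satiated replicate 2 or 4 or without fasted replicate 1 or 4 (adjusted p from 0.0515 to 0.0753), with normexp (-0.40, adjusted p = 0.0509) and when dim probes were kept (adjusted p = 0.0769).

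Mcm7 rose. Its levels were 1.37, 1.50, 1.05 and 1.14 in satiated replicates 1 to 4 and 2.15, 2.18, 2.17 and 1.83 in the fasted ones. Every fasted heart was above every satiated one, and fasted replicate 4 was the lowest of its group. The mean rose from 1.27 ± 0.21 to 2.08 ± 0.17 (SD, n = 4 each), a log2 difference of 0.82 ± 0.15 (SE), or 1.77-fold, with an adjusted p = 0.00731. Its printed promoter held matches to all 3 elements, and its second promoter in the table (chr5:138171217-138171516, minus strand) a CCAAT match only.

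The other helicase and licensing genes did not pass the test. Mcm3 had a log2 difference of -0.34 ± 0.17 (adjusted p = 0.194), Mcm6 of -0.25 ± 0.14 (adjusted p = 0.247) and Mcm4 of 0.13 ± 0.14 (adjusted p = 0.562). Cdc45, which joins the MCM ring to form the active helicase, was at -0.41 ± 0.18 (adjusted p = 0.142). The loading factors Cdc6 and Cdt1 had differences of 0.09 ± 0.42 and 0.38 ± 0.27 (adjusted p = 0.910 and 0.370). In a fit blocked by replicate number, Mcm3 and Cdc45 were called lower (adjusted p = 0.0362 and 0.0410). That fit also called more over everything tested, 6486 against 4073 of 20203, so calls gained in it are not particular to these genes.

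**Figure D2:**
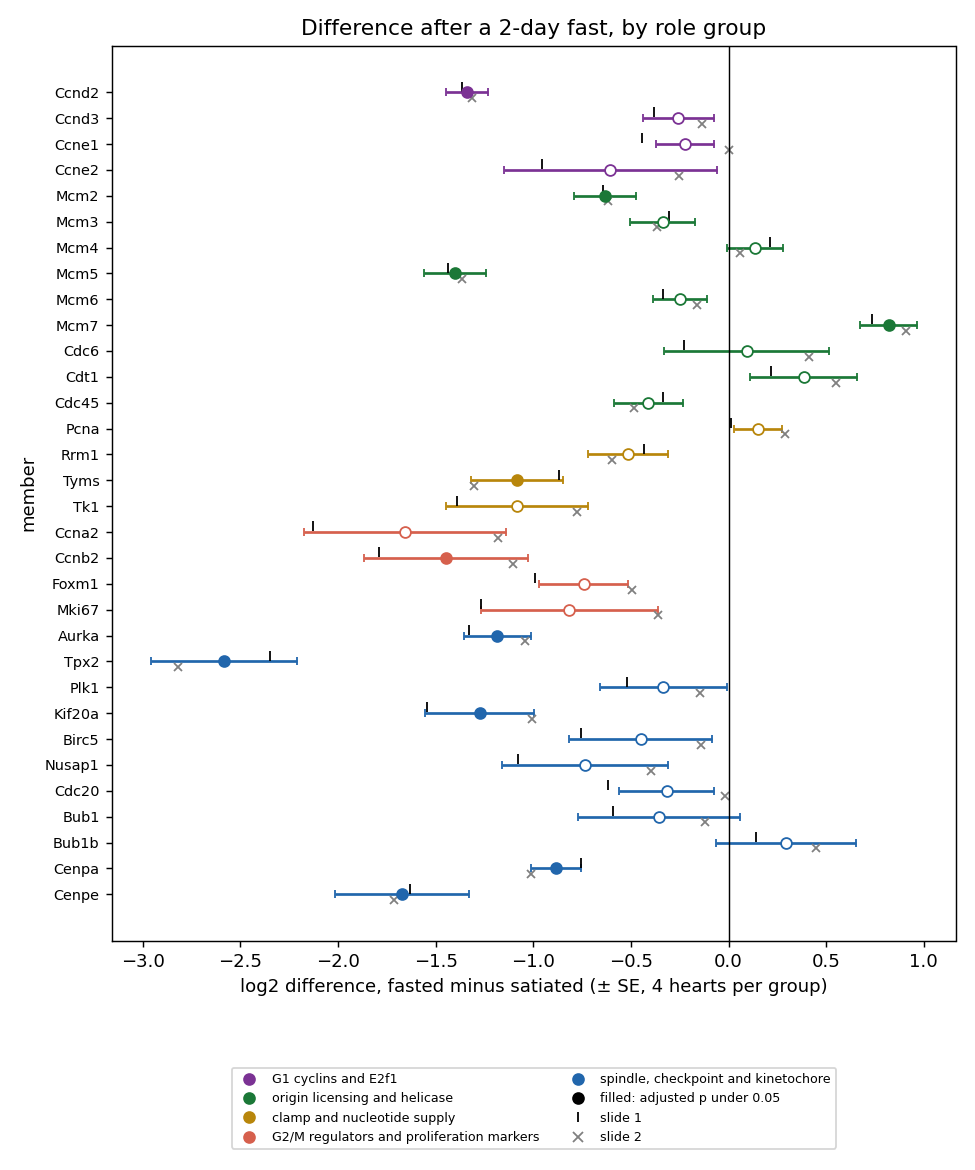
Log2 difference, fasted minus satiated, of each of the 32 tested genes (horizontal axis) with its standard error as bars, coloured by role (vertical axis). Filled circles are called genes, open circles the others, and the small bars and crosses give the difference within slide 1 and slide 2. Tpx2, at -2.59, lies lowest and Mcm7, at 0.82, highest.

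Of the clamp and nucleotide genes, 1 of 4 tested fell (25%, near the 20.2% called over everything tested). This was Tyms, thymidylate synthase, which makes the thymidine nucleotide needed for DNA. Its levels were -0.90, -0.37, -0.65 and -0.21 in satiated replicates 1 to 4 and -1.54, -1.46, -2.20 and -1.26 in the fasted ones. The groups did not overlap, and fasted replicate 3 was the lowest heart. The log2 difference was -1.09 ± 0.24 (SE, n = 4 each), 2.12-fold lower (adjusted p = 0.0153), and a second probe gave -1.32 ± 0.26 (adjusted p = 0.0106). Tk1, thymidine kinase of the salvage route, had a log2 difference of -1.08 ± 0.36 that missed the threshold (adjusted p = 0.0701). Rrm1, the large subunit of ribonucleotide reductase, had -0.52 ± 0.21 (adjusted p = 0.119), and was called once replicate numbers entered as a block (adjusted p = 0.0168). Pcna, the sliding clamp, which also serves DNA repair, had 0.15 ± 0.12 (adjusted p = 0.444).

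Of the G2/M regulators and proliferation markers, 4 could be tested, and 1 fell, Ccnb2, a B-type cyclin that activates the mitotic kinase Cdk1. The share called was 25%, near the 20.2% of everything tested. The median difference of the 4 was -1.13, the lowest of the 5 role groups. Ccnb2 had levels of -1.43, -0.47, -2.57 and -0.72 in satiated replicates 1 to 4 and -2.59, -2.90, -2.56 and -2.93 in the fasted ones. The groups overlapped, since satiated replicate 3 was as low as the fasted hearts. The log2 difference was -1.45 ± 0.42 (SE, n = 4 each), 2.73-fold lower (adjusted p = 0.0430). The call did not hold once replicate numbers entered as a block (adjusted p = 0.0603), nor when any heart other than satiated replicate 3 was left out (adjusted p from 0.0727 to 0.110), nor when dim probes were kept (adjusted p = 0.0965).

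Satiated replicate 3 was also low for Ccna2, the A-type cyclin of S and G2 phase. Ccna2 had levels of -1.36, -0.44, -3.09 and -1.67 in satiated replicates 1 to 4 and -3.29, -2.77, -3.17 and -3.94 in the fasted ones. Satiated replicate 3 lay among the fasted hearts, and the other 3 satiated hearts lay above all of them. The log2 difference of -1.66 ± 0.52 missed the threshold (adjusted p = 0.0560) and passed it in the fit blocked by replicate number (adjusted p = 0.0378). Foxm1, a transcription factor that drives mitotic genes, had -0.74 ± 0.23 (adjusted p = 0.0523). Mki67, the gene of the proliferation antigen Ki-67, had -0.82 ± 0.45 (adjusted p = 0.249), with satiated levels that ran from -1.67 in replicate 3 to 0.61 in replicate 2. Without satiated replicate 3, all 3 of these genes passed and 14 of the 32 were called. That heart was the lowest satiated one for each of the 3, so leaving it out widens their differences by construction. The gained calls are no support for a fall.

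Of the spindle, checkpoint and kinetochore genes, 5 of 11 tested fell and none rose, with a median difference of -0.74. The share called was 45.5%, against 20.2% of everything tested. The 5 were Aurka, Tpx2, Kif20a, Cenpa and Cenpe, and the groups did not overlap for any of them. The calls rest on these same values, so the lack of overlap adds no separate support. All 5 were called in every fit that left out 1 heart.

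Aurka encodes the kinase that matures centrosomes and builds the spindle poles, and Tpx2 the protein that activates this kinase and brings it to spindle microtubules. Aurka had levels of -1.68, -1.28, -1.94 and -1.27 in satiated replicates 1 to 4 and -2.76, -2.86, -2.66 and -2.63 in the fasted ones. The fasted hearts were close together, and the lowest satiated heart, replicate 3, was above all of them. The log2 difference was -1.19 ± 0.17 (SE, n = 4 each), 2.27-fold lower (adjusted p = 0.00317).

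Tpx2 had the largest difference of the 32 genes, on a dim signal. Its levels were -3.37, -2.29, -3.06 and -3.07 in satiated replicates 1 to 4 and -5.37, -4.99, -5.19 and -6.59 in the fasted ones. The probe was above background on all 4 satiated arrays and on the 2 fasted arrays of slide 1, and below it in fasted replicates 3 and 4. The log2 difference was -2.59 ± 0.37 (SE, n = 4 each), 6.00-fold lower (adjusted p = 0.00316), but its size depends on how background is taken off: with normexp it was -0.87.

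Kif20a, a kinesin of the central spindle needed for cytokinesis, had levels of -1.78, -1.24, -2.31 and -1.31 in satiated replicates 1 to 4 and -3.13, -2.97, -2.40 and -3.24 in the fasted ones. Fasted replicate 3, the highest of its group, lay just below satiated replicate 3, the lowest of the satiated hearts. Kif20a differed by -1.27 ± 0.28 (SE), 2.42-fold lower (adjusted p = 0.0158).

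At the kinetochore, Cenpa, the histone H3 variant that marks centromeres, had levels of 0.54, 0.86, 0.63 and 0.78 in satiated replicates 1 to 4 and -0.06, -0.05, -0.28 and -0.33 in the fasted ones. All satiated hearts were above 0 and all fasted hearts below it. Cenpa thus differed by -0.88 ± 0.13 (SE) on the log2 scale, 1.85-fold lower (adjusted p = 0.00313). Cenpe, a kinesin that moves chromosomes to the spindle equator, had levels of -2.32, -1.49, -2.45 and -0.96 in satiated replicates 1 to 4 and -3.92, -3.16, -3.55 and -3.28 in the fasted ones. The satiated hearts were widely spread but stayed above the fasted ones. For Cenpe the log2 difference was -1.67 ± 0.35 (SE), 3.19-fold lower (adjusted p = 0.0127), on 1 of its 3 probes, the other 2 being below background on all 8 arrays. With normexp the differences were -0.94 for Cenpe, -0.83 for Kif20a, -0.77 for Aurka and -0.89 for Mcm5.

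**Figure D3:**
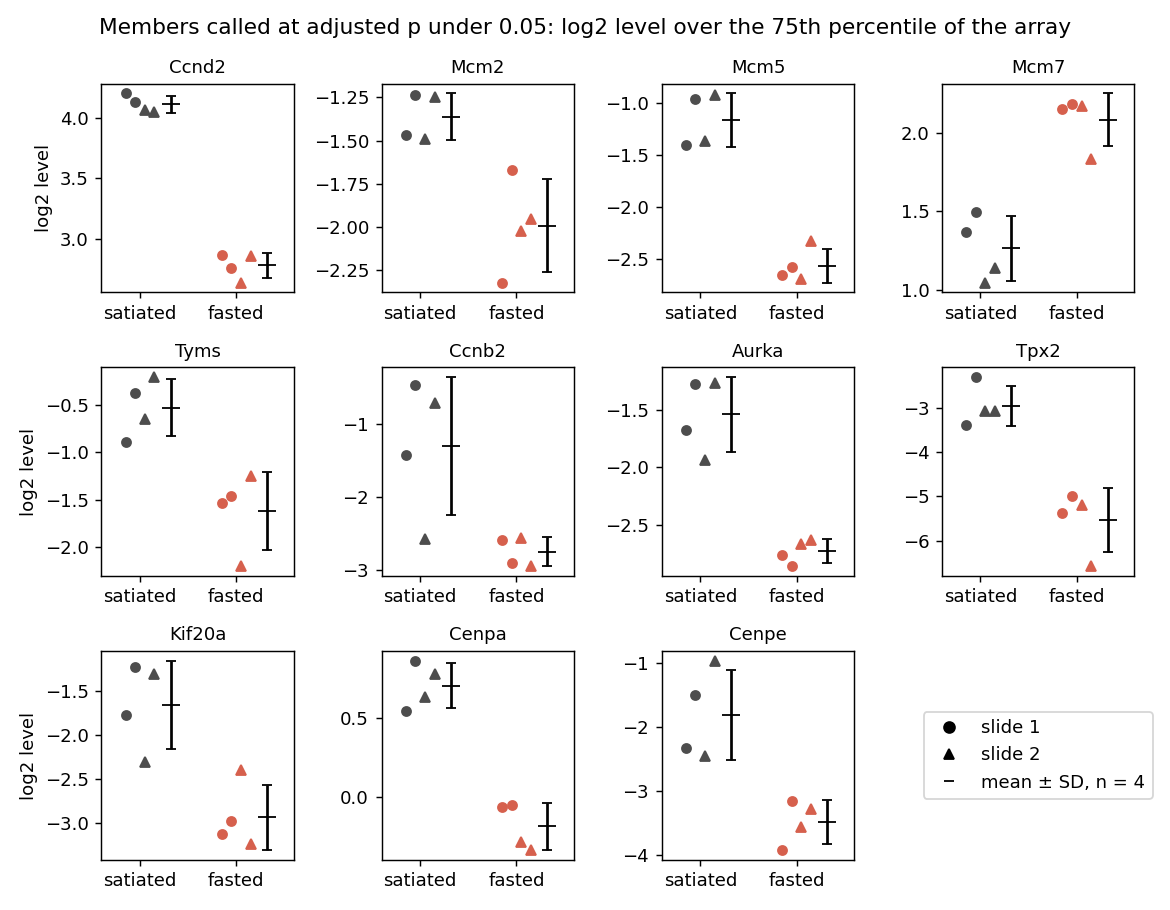
Log2 level (vertical axis, relative to the 75th percentile of the array) of the 11 called genes in each heart, with circles for slide 1, triangles for slide 2, and the mean ± SD of each group (n = 4). The groups are apart for 10 of the 11, which were called on these same values, and for Ccnb2 satiated replicate 3, at -2.57, lies among the fasted hearts.

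The checkpoint genes did not pass. Bub1 and Bub1b, whose products hold anaphase until chromosomes are attached, had log2 differences of -0.36 ± 0.42 and 0.29 ± 0.36 (adjusted p = 0.605 and 0.622), and Cdc20, which activates the ligase that starts anaphase, -0.32 ± 0.24 (adjusted p = 0.407). A second Bub1 probe, too dim to test, was above background in 2 satiated hearts and no fasted heart (means of -5.31 and -7.16). The mitotic kinase Plk1 had -0.34 ± 0.33 (adjusted p = 0.523), Birc5, survivin, a subunit of the chromosomal passenger complex, -0.45 ± 0.37 (adjusted p = 0.437), and Nusap1, a microtubule binder of the spindle, -0.74 ± 0.43 (adjusted p = 0.269). Their standard errors of 0.24 to 0.43 leave room for changes as large as several of those called. Over all 21 tested genes that were not called, 16 had a difference below 0 and 5 above it, from -1.66 to 0.38.

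The 6 genes too dim to test were seen mainly in satiated hearts, other than Kif11. For a gene above background in no fasted heart, a floored fold was taken. On each fasted array the probe's own level was replaced by the lowest level above background there if that was higher. The satiated mean was set against the mean of these. Satiated levels below background were left as measured, so the floored fold is not a strict lower bound. Cdk1, the mitotic kinase, was above background in 3 satiated hearts and no fasted heart on one probe, with mean levels of -4.14 and -6.77. Its floored fold on that probe was 1.80, lower in fasted hearts. The other Cdk1 probe was above background in 1 fasted heart only. E2f1 was above background in 3 satiated hearts and no fasted heart on one probe (means of -4.57 and -5.93, floored fold of 1.34, lower), and in 2 and 1 on the other. Top2a, the topoisomerase that untangles sister chromatids, and Aurkb, kinase of the passenger complex, were above background in 2 satiated hearts and no fasted heart. Their satiated means did not exceed the floored fasted means. Ccnb1 was above background in 2 satiated hearts at most on any of its 3 probes and in no fasted heart. Kif11, the kinesin that separates the spindle poles, was above background in 1 satiated heart on one probe and in 1 fasted heart on the other. When dim probes were kept, Cdk1 and Aurkb were called lower (adjusted p = 0.0313 and 0.0355), on values mostly at background, while Mcm2 and Ccnb2 were no longer called (adjusted p = 0.0769 and 0.0965).

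Mitotic genes varied more among satiated hearts than among fasted ones. Over the 15 tested G2/M, spindle and kinetochore genes, the SD was larger in the satiated group for 13, with a median SD of 0.673 against 0.345. For the other 17 genes it was larger in the satiated group for 4, with medians of 0.207 and 0.269. The share over everything tested was not computed. The same satiated hearts tended to be low or high: satiated replicate 3 was lowest for 12 of the 15 and satiated replicate 1 for 3, whereas satiated replicate 2 was highest for 10 and satiated replicate 4 for 4. Satiated replicate 3 was at or below the highest fasted heart for 10 of the 15, satiated replicate 1 for 4, satiated replicate 4 for 2 and satiated replicate 2 for 1. Since these genes come from the same 8 RNA samples, their likeness is not independent evidence. The sign of the difference was the same on both slides for all 15, and the difference was lower on slide 1 for 12 of them. These 12 include Bub1b, whose difference was above 0 on both slides (0.14 on slide 1 and 0.45 on slide 2). The median level over the 32 genes was -1.34, -0.49, -1.61 and -0.94 in satiated replicates 1 to 4 and -2.36, -1.72, -2.11 and -1.94 in fasted replicates 1 to 4, so every fasted heart was below every satiated one.

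Further genes of the cell cycle, 142 in 3 lists, had the same lean for replication and mitosis but not for control genes. Of 117 tested, 33 were lower and 8 higher, 35% against the 20.2% of everything tested. With every kept probe on its own, 38 of 149 were called lower and 18 higher. Over the whole array, 2781 of 26480 probes were then lower and 2801 higher. Of 42 further replication genes, 11 fell and 1 rose (Gins1, 0.55 ± 0.14, adjusted p = 0.0268), with a median of -0.26. The share called was 28.6%, against 20.2% of everything tested. The probes of Pold3 disagreed in the fit of every probe. Its brightest was not called (-0.66, adjusted p = 0.0948), and its others were called higher (1.36 and 1.37, adjusted p = 0.00195 and 0.0026). The call of Gins1 was lost without satiated replicate 1, 3 or 4 or fasted replicate 1 or 2 (adjusted p from 0.0509 to 0.0757) and when dim probes were kept (adjusted p = 0.0832), and its second probe, at 0.45, did not pass (adjusted p = 0.0958). Those with the smallest p were Dut, which removes dUTP (-1.12 ± 0.11, adjusted p = 0.000864), Pola1, the catalytic subunit of the primase-bound polymerase (-1.28 ± 0.16, adjusted p = 0.0017), Dnmt1, the maintenance DNA methyltransferase (-0.81 ± 0.10, adjusted p = 0.00196), Timeless, of the replication fork (-1.14 ± 0.18, adjusted p = 0.00443), and Rpa3, a subunit of the single-strand binding protein (-1.32 ± 0.21, adjusted p = 0.00472). A second probe of Timeless gave -1.08 and did not pass (adjusted p = 0.0563).

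Of 39 further mitosis genes, 16 fell and 1 rose (Zwint, 0.76 ± 0.18, adjusted p = 0.0226), with a median of -0.88. The share called was 43.6%, against 20.2% of everything tested. The call of Zwint was lost without satiated replicate 1 or 2 or fasted replicate 4 (adjusted p from 0.0537 to 0.0653), when dim probes were kept (adjusted p = 0.0648), with the deposited ratios (adjusted p = 0.0536) and with the mean of its probes (adjusted p = 0.153). Its second probe, at 0.61, did not pass (adjusted p = 0.365). Gins1 and Zwint were singled out after their values were seen. Cenpf, a kinetochore and nuclear matrix protein, had levels of 1.17, 1.28, 1.26 and 1.19 in satiated replicates 1 to 4 and -1.65, -1.52, -1.71 and -1.64 in the fasted ones. The spread within each group was small beside the distance between them. Its log2 difference was -2.86 ± 0.10 (SE), 7.25-fold lower (adjusted p = 2.9e-05). Cks1b, a Cdk-binding subunit, fell by 1.14 ± 0.15 on the log2 scale (adjusted p = 0.00199), Shcbp1 by 2.15 ± 0.27 (adjusted p = 0.002) and Nuf2, of the kinetochore Ndc80 complex, by 2.29 ± 0.41 (adjusted p = 0.00767). Shcbp1 was above background in 4 satiated and 2 fasted hearts and Nuf2 in 3 and 1. Ncapg, a condensin subunit, was above background in all 4 satiated hearts and no fasted heart, so it passed the filter only through the group where it was higher, and its place among the 16 is no support for a fall. Its floored fold was 3.58, lower in fasted hearts (measured means -3.14 and -5.83). With normexp the differences shrank to -0.74 for Shcbp1, -0.75 for Nuf2 and -0.79 for Ncapg, the last smaller than that floored fold. Of the 16, 5 were above background on all 8 arrays.

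Of 36 control genes tested, 6 rose and 6 fell (33.3%, against 20.2% called over everything tested), with a median of 0.10. Cdkn1a, the kinase inhibitor p21, rose by 3.31 ± 0.17 on the log2 scale, 9.90-fold (adjusted p = 7.82e-05), with every fasted heart between 3.34 and 3.87 and every satiated heart between 0.12 and 0.65. Cdkn1b, the inhibitor p27, rose by 0.59 ± 0.10 (adjusted p = 0.00587), with a second probe at 0.44 that did not pass (adjusted p = 0.0669). Tfdp2, a dimerisation partner of E2F factors, rose by 2.55 ± 0.18 (adjusted p = 0.000243), and Ccng2, an atypical cyclin, by 1.05 ± 0.13 (adjusted p = 0.00173). Ccng1, its paralog, was at -1.21 ± 0.12 (adjusted p = 0.00091), while its second probe gave -0.35 and did not pass (adjusted p = 0.0545).

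**Figure D4:**
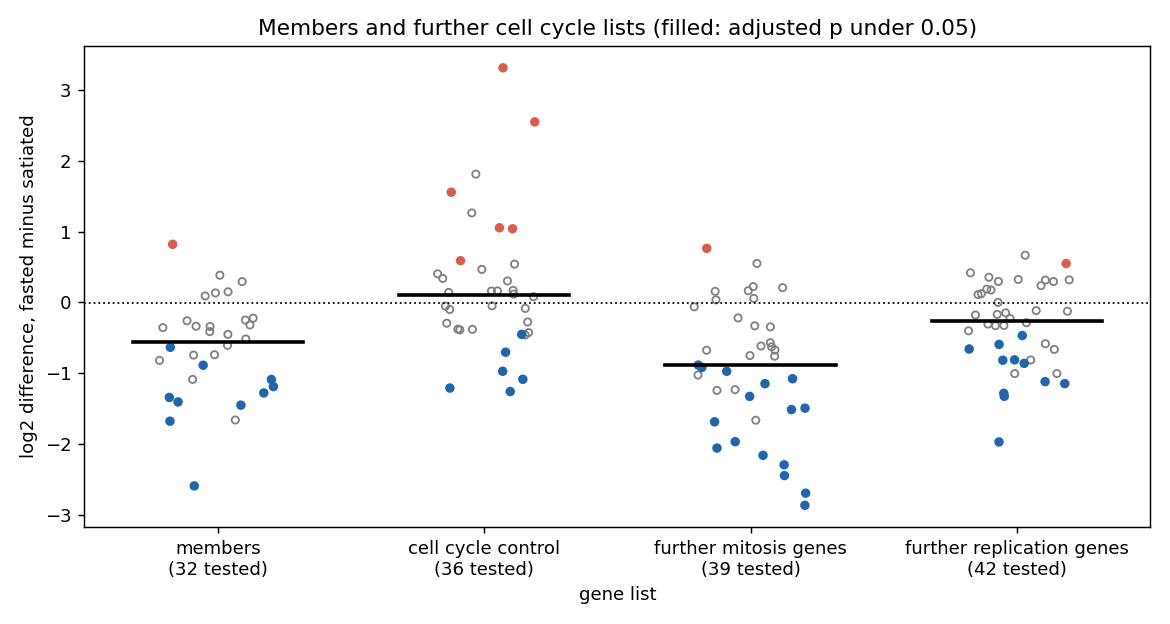
Strip plot of the log2 difference, fasted minus satiated (axis in log2 units), of each tested gene among the 32 replication and mitosis genes and in the lists of 42 further replication genes, 39 further mitosis genes and 36 control genes. Lines mark the medians of -0.56, -0.26, -0.88 and 0.10, and the dotted line the median of everything tested.

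Among cell type markers, the share called was 70% of 10 fibroblast markers and 50% of 4 neutrophil markers tested, against 20.2% of everything tested. In the other lists it ran from 0% to 22.2%, at or below about that background. Of 10 fibroblast markers, 6 fell, Lum (-1.48 ± 0.17, adjusted p = 0.00137) and Postn (-1.12 ± 0.15, adjusted p = 0.00253) among them, and 1 rose, Dcn (0.56 ± 0.12, adjusted p = 0.0155). Pdgfra, not called on its brightest probe (0.37, adjusted p = 0.0781), was called higher on its second (1.16, adjusted p = 0.0381). All 10 were above background in all 8 hearts, their median level ran from 3.16 to 3.54 in satiated and from 1.55 to 2.36 in fasted hearts, and their summed linear level from 262 to 297 and from 247 to 299. Of 10 cardiomyocyte markers 1 fell, Actc1 (-1.64 ± 0.13, adjusted p = 0.000354), with sums of 2797 to 3610 and 2477 to 3596. Of 10 endothelial markers none was called (limma, 1 at an unadjusted p under 0.05). Of 9 smooth muscle and pericyte markers 2 fell, Cspg4 (-0.85 ± 0.15, adjusted p = 0.00759) and Acta2 (-0.50 ± 0.13, adjusted p = 0.0291). The probes of Acta2 disagreed, with its others at -1.42 (adjusted p = 0.0116) and 0.009 (adjusted p = 0.984). Abcc9 and Kcnj8 were called lower only on a probe other than their brightest (-0.50 and -0.67, adjusted p = 0.0268 and 0.0284). Of 9 macrophage markers Cd14 rose (adjusted p = 0.0484) and Fcgr1 fell (adjusted p = 0.0490). Markers of blood-borne cells were dim: S100a8 and S100a9 rose among 4 neutrophil markers tested of 8 (sums of 1.12 to 1.85 and of 1.61 to 5.28), and Ms4a1 among 8 lymphocyte markers tested of 10 (sums of 0.684 to 1.08 and of 0.920 to 2.60). In the remaining lists Lipe of 7 adipocyte markers and Upk1b of 6 mesothelial markers rose, and none of 3 erythroid and 8 skeletal muscle markers was called (limma, 0 at an unadjusted p under 0.05). Every marker tested was well above background on at least 4 of 8 arrays. The part of these cell types in the result for replication and mitosis genes was not tested.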

How the data were processed

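The deposited scanner files hold spot intensities from which Agilent Feature Extraction had subtracted background, with no normalization between arrays (versions 10.5.1.1 on slide 1 and 10.7.3.1 on slide 2, per the file headers). The deposited series table holds linear ratios to a value per probe, per its values against the scanner files, and was an alternative source. Of 45018 spots, 1639 controls and outlier-marked spots were left out and spots of 1 probe averaged. Each array's 75th percentile was subtracted on the log2 scale. Probes passed if well above background on 4 or more of 8 arrays (26480 of 41174). RefSeq symbols (GRCm38.p6) were found for 26690 probes, 14484 stayed unnamed, and the brightest kept probe stood for a gene (20203 tested, 13816 with a symbol). Fasted and satiated hearts were compared in limma 3.58.1 (lmFit, eBayes; R 4.3.3, package data.table in version 1.17.8), in 2-sided tests with adjustment by Benjamini-Hochberg over everything tested and calls at 0.05. The scripts were tested on simulated data. Figures used matplotlib 3.10.9, pandas 2.3.3 and Python 3.11.15. The files used lack a mean signal, so normexp (offset 50) ran on the median signal. No term for slide entered the fit, and 4 arrays per group limit the precision. The deviations of same-numbered hearts from their group means correlated at 0.439, 0.475, 0.33 and 0.493 for numbers 1 to 4. Such hearts share a slide. All 4 correlations were positive, but only number 4 had its own number as best-correlated partner. The main fit did not pair the hearts, and the replicate number entered as a block only in an alternative fit. The members, the lists and the rule for naming genes (every member, values in every heart for called members, 5 smallest p of each further list, 2 called markers of each cell type) were chosen with earlier results of these data known. Slide, scan and software version cannot be told apart, though both slides carry 2 hearts per group.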

Additional observations from a re-analysis of the deposited data

Results flagged for a closer look

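Mcm7 in fasted replicate 4 stood apart from its group: its log2 level was 1.83 against 2.15 to 2.18 in the other 3 fasted hearts, a gap of 0.912 of the group's range. This heart was still above all satiated hearts. Among 64 groups of 4 hearts examined, about 1 in 20 would stand apart by chance.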

How the results depend on the processing

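Across 23 alternative settings no replication or mitosis gene other than Mcm7 was called higher, no gene called among the 32 or in the further lists changed sign, and the median of the 32 stayed below 0. Of the 32, 4 genes that were not called changed sign in at least 1 setting (Bub1b, Ccne1, Cdc45 and Cdc6). Slide 1 alone gave 7 calls among the 32 genes, 22 among the further cell cycle genes and 1883 over all genes. Slide 2 alone gave 0, 0 and 1 (10, 43 and 5332 at an unadjusted p under 0.05, limma). With the replicate number as a replicate block, 14, 57 and 6486 were called, and no call among the 32 changed beyond those given for Ccnb2, Ccna2, Cdc45, Mcm3 and Rrm1. The slide as a block gave 7176 over all genes, and keeping dim probes 2225 of 32701. Leaving out 1 heart gave 9 to 14 calls among the 32 genes, 27 (without satiated replicate 2) to 42 among the further ones, 2495 (without satiated replicate 4, and 2520 without satiated replicate 2) to 3690 over all genes, and medians of -0.72 to -0.44. Signal over background limits dim genes, Tpx2 among them, which was not tested when all 8 arrays had to be above background. The cause of these changes was not tested.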

Other observations

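Among the control genes, 3 pairs of paralogs moved in opposite directions, a pattern picked out after the values were seen. Rbl1 and Rbl2 encode the retinoblastoma relatives p107 and p130, the second of which is typical of resting cells. Rbl1 had log2 levels of -1.74, -1.36, -2.08 and -1.92 in satiated replicates 1 to 4 and -2.48, -2.36, -3.25 and -2.88 in the fasted ones, a difference of -0.97 ± 0.23 (SE, adjusted p = 0.0229). Rbl2 had 0.25, 0.17, -0.27 and -0.34 in satiated and between 0.56 and 1.18 in fasted replicates, a difference of 1.04 ± 0.20 (adjusted p = 0.00976), and its second probe passed as well (adjusted p = 0.00644). For both genes the groups did not overlap. The call of Rbl1 was lost without satiated replicate 1 or 2 or fasted replicate 4 (adjusted p from 0.0547 to 0.0609), and with normexp its difference was -0.59.

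The partners of E2F factors also parted. Tfdp1 had levels of 1.01, 0.86, 0.78 and 0.71 in satiated replicates 1 to 4 and 0.37, 0.34, -0.31 and 0.16 in the fasted ones (-0.70 ± 0.17, adjusted p = 0.0235), and this call was lost without satiated replicate 1, 2 or 3 (adjusted p from 0.0516 to 0.0630). Tfdp2 had 0.95, 0.68, 0.99 and 0.46 in satiated and 3.44, 3.07, 3.62 and 3.12 in fasted replicates, and its second probe gave 2.05 (adjusted p = 0.000366). The third pair was Ccng1 and Ccng2, with 1 of the 2 Ccng1 probes called. The difference between the members of a pair was not tested.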
